A study of Homo sapiens with 8 samples.

Results

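The genes described here are 44 splicing factors of human cells: 22 heterogeneous nuclear ribonucleoproteins (hnRNPs) and their relatives, 12 serine/arginine-rich (SR) and TRA2 proteins, and 10 proteins of the U2 branch of the spliceosome and of its core. They were chosen by gene symbol, and all 44 were matched among the 63568 genes of the count table. RNA and its methylation had been measured by MeRIP-seq, in which fragmented RNA is sequenced before (input) and after precipitation with an antibody against N6-methyladenosine (m6A), to search for targets of the methyltransferase METTL3. The cells were MIAPaCa-2, an established human pancreatic carcinoma line, which carried a control short hairpin RNA (control) or a short hairpin RNA against METTL3 (METTL3-KD). The 8 samples form 4 groups (input and m6A of each condition), and the 2 samples of a group are lanes of the same library. No library was repeated, and whether the knockdown line is a clone is not given in the sources used here.

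hnRNPs coat new transcripts and often hold back splice sites, whereas SR proteins bind exonic enhancers and recruit the splicing machinery. The U2AF dimer and the SF3A and SF3B complexes of the U2 snRNP mark the 3′ splice site and the branch point before the core proteins of the spliceosome take over. HNRNPC and HNRNPA2B1 are known as nuclear proteins whose binding is linked to m6A, since a methylated adenosine can open an RNA hairpin and expose the U-rich tract that HNRNPC binds.

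The control lanes held 1609215 and 1628753 counted reads and the METTL3-KD lanes 906240 and 926765. The reads came from few distinct fragments: the control input had 9291 distinct read positions, each read 310 times on average, and the METTL3-KD input had 52141, each read 25.7 times. Reads per gene therefore clustered, at 502 and 1020 reads in the control and at 17.5 and 33.4 in METTL3-KD cells. The lower of these values is called a mode unit below, and it is a rough guide to the reads that 1 distinct fragment gave. METTL3 itself had 0 reads in all 4 lanes, so the knockdown could not be checked in these counts. Of 7 epithelial and carcinoma line markers, KRT8 (10850 control and 1167 METTL3-KD reads), KRT18 (3535 and 1212) and VIM (8978 and 5649) were read in both inputs, whereas KRT19 had 1 and 201, KRT7 had 1 and 0, and EPCAM and CDH1 were at 0 in both. Of the markers of other cell types, PTPRC, COL1A1, PRSS1 and INS were at 0, CD68 had 0 control and 43 METTL3-KD reads, and COL1A2 had 1804 and 353. The part of other cells in the results was not tested.

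All 44 splicing factors were read in the METTL3-KD input, from 21 to 940 reads, but 24 of them were read at least 10 times in the control input. Another 18 (40.9%) had 0 control reads, against 74.3% of all genes with at least 10 reads over both inputs. HNRNPA3 and SRSF6 had 1 and 2 control reads. The control reads of the 24 members lay between 425 and 3216, so no member lay between 2 and 425 control reads. In mode units this range was 0.85 to 6.40, and 12 of the 24 members lay within 0.25 of 2 units. Of all 9931 genes with at least 10 reads over both inputs, 22.3% had at least 10 control reads. Among the genes with at least 100 METTL3-KD reads the share was 39.7%, and of the 34 members read as deeply 21 had control reads. Of the hnRNP genes 16 of 22 had at least 10 control reads, against 4 of 12 SR genes and 4 of 10 U2 and core genes.

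**Figure D1:**
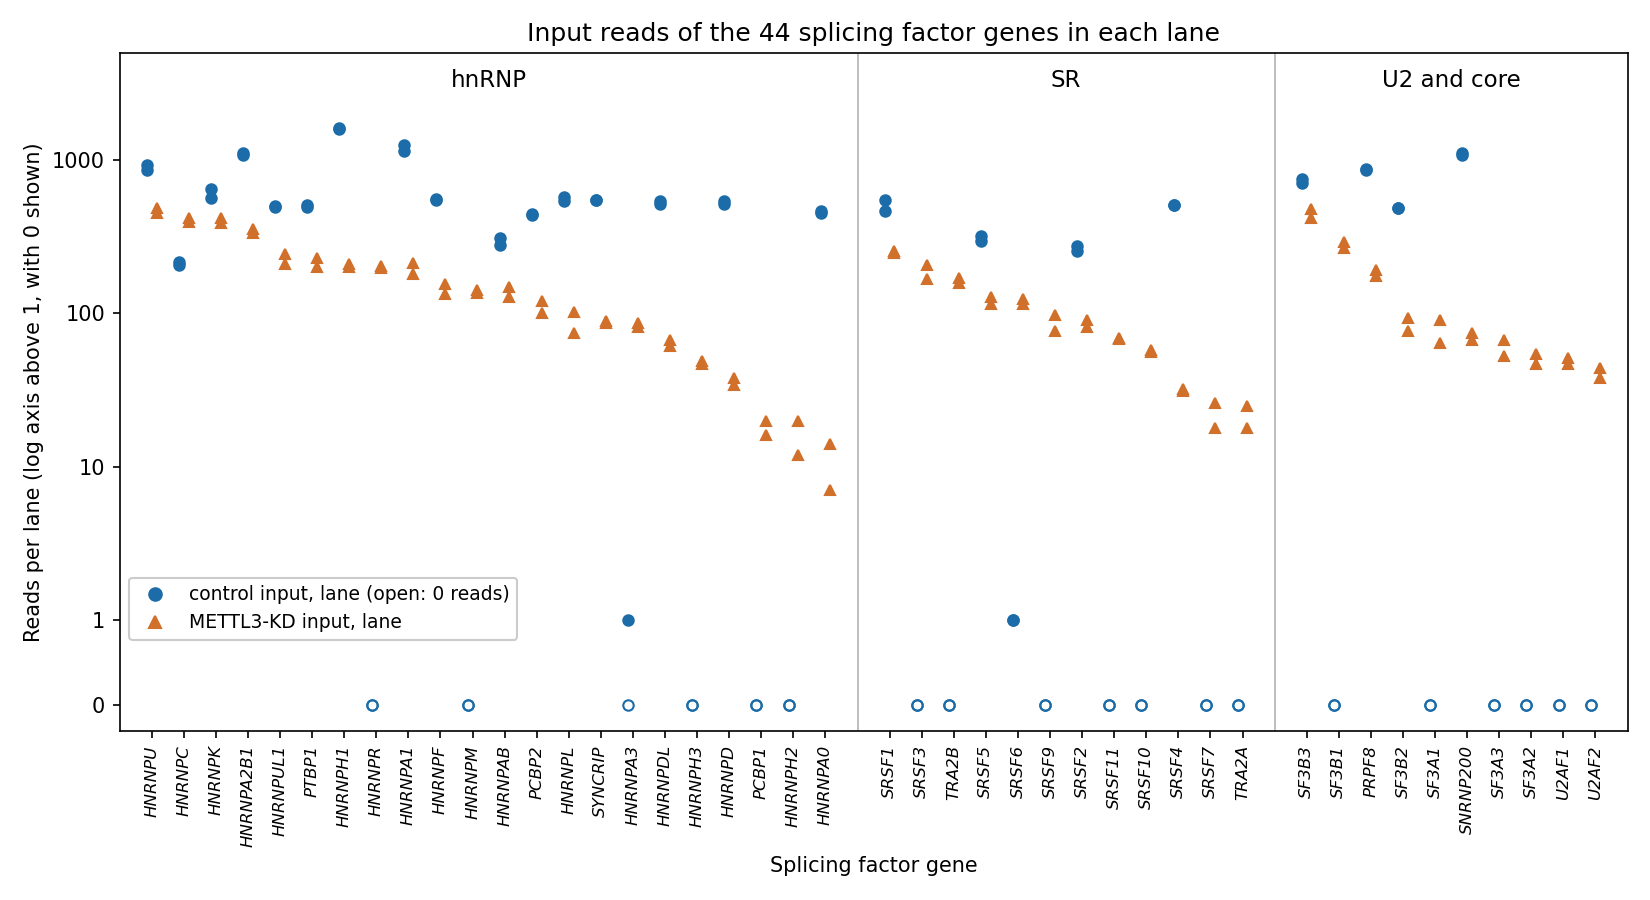
Reads per lane of the 44 splicing factor genes, on a log axis above 1 with 0 shown, for the control input (blue circles, open at 0) and the METTL3-KD input (orange triangles), with genes ordered by METTL3-KD reads within each group. The METTL3-KD values fall gradually down to 21 reads in both lanes together, whereas the control values lie either above 200 reads per lane or at 0 or 1.

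HNRNPA2B1 and HNRNPC, which encode the m6A-linked nuclear proteins, differed in which input held more of their raw reads. The HNRNPA2B1 reads numbered 1118 and 1081 in the control lanes, against 356 and 337 in the METTL3-KD lanes. For HNRNPC there were 217 and 208 control reads, against 419 and 393 METTL3-KD reads. HNRNPC was thus the only member with 10 or more control reads that had more reads in the METTL3-KD input than in the control, although that library was shallower. The TMM scale sets the libraries against each other by genes read in both inputs, and genes at 0 in either input do not enter it. On the TMM scale the log2 ratio of METTL3-KD to control was 3.12 for HNRNPC (95% exact interval of counting error 2.96 to 3.30). For HNRNPA2B1 it was 0.53 (0.40 to 0.65). On this scale both ratios were thus above 0. Rounded to mode units, which are nearer to the number of distinct fragments, the interval was 0.33 to 8.21 for HNRNPC and -0.79 to 2.62 for HNRNPA2B1. These intervals overlapped. Under TMM scaling HNRNPC was the only one of the 24 members whose interval in mode units lay on one side of 0. Its control reads amounted to 0.85 units, and no allowance was made for the 24 intervals compared. These intervals were not computed under total count scaling. There the log2 ratio of HNRNPC fell from 3.12 to 1.75, and that of HNRNPA2B1 changed sign to -0.84. The scaling moves the intervals in mode units down by about as much as the ratios. This fall exceeds 0.33, so the interval of HNRNPC in mode units would then include 0. In such bulk RNA fewer cells with a transcript and less of it per cell cannot be told apart.

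A log2 ratio beyond 2 in either direction was called, the size used in the study, with no test, since each condition has 1 library. By this rule 1 member was lower in the METTL3-KD input and 21 were higher, while 22 lay between. The background was 7.37% lower and 79.1% higher among the 9931 genes, so the share of members on the higher side lay under that of all genes. Under total count scaling 6 members were lower (HNRNPA0, HNRNPD, HNRNPDL, HNRNPH1, SRSF4 and SNRNP200) and 20 were higher, so that 76.9% of the calls were higher, against 95.5% under TMM. HNRNPC, at 1.75, was not called under total count scaling. The called member on the lower side, HNRNPA0, encodes a protein of the hnRNP A/B family that binds AU-rich elements. It had 465 and 451 control reads and 14 and 7 METTL3-KD reads, a log2 ratio of -3.21 (-3.95 to -2.63). In mode units the interval ran from -9.53 to 0.62. Of the 21 higher members, 20 had at most 2 control reads, and the other was HNRNPC. Among the 1871 genes with at least 10 reads in both inputs 21.3% were lower and 7.8% were higher, against 1 and 1 of the 24 members.

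Over all 22 hnRNP genes the median log2 ratio was 1.01, with 5 genes at 0 in the control, and under total count scaling it was -0.36, a change of sign. The 16 with at least 10 reads in both inputs ran from -3.21 (HNRNPA0) to 3.12 (HNRNPC) with a median of 0.22, against -0.61 for all genes read in both inputs. HNRNPH1, whose product binds runs of G, had the most control reads of any member, 1615 and 1601, with 200 and 211 in METTL3-KD cells, a log2 ratio of -0.77 (-0.93 to -0.63). HNRNPF, its relative, had 549 and 556 control reads and 134 and 156 METTL3-KD reads, a log2 ratio of 0.26 (0.07 to 0.45). HNRNPU, a nuclear matrix protein that binds chromatin and RNA, had the most METTL3-KD reads, 485 and 455, with 867 and 923 in the control and a log2 ratio of 1.26 (1.15 to 1.38). Its relative HNRNPUL1 had 493 and 503 control reads and 209 and 245 METTL3-KD reads, a log2 ratio of 1.06 (0.90 to 1.22). HNRNPU and HNRNPUL1 thus lay above 1, HNRNPF near 0 and HNRNPH1 under 0 on the log2 scale.

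The hnRNPs with KH domains, which bind C-rich RNA, differed in the control. HNRNPK had 567 and 652 control reads and 390 and 417 METTL3-KD reads, with a log2 ratio of 1.60 (1.47 to 1.73). PCBP2 had 448 and 436 control reads and 100 and 120 METTL3-KD reads, with a log2 ratio of 0.19 (-0.03 to 0.40). PCBP1, which arose from a spliced copy of a PCBP gene and has a single exon, was at 0 in the control, against 20 and 16 METTL3-KD reads. The interval of PCBP2 included 0, and the PCBP1 reads were at least 54.9-fold higher in METTL3-KD cells when 3 reads are taken as the control floor. Such folds bound the scaled reads and not the RNA level, because 3 reads are far under a mode unit of the control.

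Regulators of splice site choice and of AU-rich mRNAs lay on both sides of 0. PTBP1, which represses exons through pyrimidine tracts, had 498 and 508 control reads and 202 and 229 METTL3-KD reads, a log2 ratio of 0.97 (0.80 to 1.13). HNRNPL, which binds CA repeats, had 571 and 542 reads against 74 and 102, a log2 ratio of -0.47 (-0.71 to -0.24). HNRNPD, known as AUF1 for its role in decay of AU-rich mRNAs, had 521 and 538 reads against 38 and 34, a log2 ratio of -1.68 (-2.05 to -1.34). Its paralog HNRNPDL had 543 and 519 reads against 61 and 67, a log2 ratio of -0.86 (-1.14 to -0.59). HNRNPD and HNRNPDL had nearly equal control reads, 2.11 mode units each, and their intervals on reads did not overlap. Their intervals in mode units overlapped widely, -4.45 to 1.82 for HNRNPD and -3.23 to 2.46 for HNRNPDL. HNRNPAB, of the A/B family, had 281 and 309 control reads and 148 and 128 METTL3-KD reads, a log2 ratio of 1.09 (0.89 to 1.31). SYNCRIP, known as hnRNP Q, had 551 and 548 reads against 89 and 86, a log2 ratio of -0.46 (-0.70 to -0.23). HNRNPR, the closest relative of SYNCRIP, was at 0 in the control, against 204 and 199 METTL3-KD reads. In scaled reads it was at least 614-fold higher than the control floor, which again does not bound the RNA level.

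HNRNPA1, a repressor of splicing with many gene copies, had 1140 and 1263 control reads and 214 and 181 METTL3-KD reads, a log2 ratio of -0.41 (-0.57 to -0.26). Its 76 pseudogenes and near-identical copies held 6840 control and 1199 METTL3-KD reads in sum, more than the gene itself in both inputs. The copy with the most control reads was HNRNPA1P7 (1987 control and 237 METTL3-KD reads), followed by HNRNPA1L2 (1330 and 123), HNRNPA1P10 (1036 and 287), HNRNPA1P14 (1036 and 0), HNRNPA1P8 (1034 and 53) and HNRNPA1L3 (416 and 243). The 7 others with at least 10 reads had 0 control reads: HNRNPA1P35 (59 METTL3-KD reads), HNRNPA1P41 (45), HNRNPA1P2 (43), HNRNPA1P39 (35), HNRNPA1P15 (27), HNRNPA1P54 (24) and HNRNPA1P4 (22). The level of HNRNPA1 is therefore uncertain, and with all copies added the log2 ratio of scaled reads was -0.34. The copies of HNRNPC were smaller in reads: HNRNPCP2 had 74 control and 63 METTL3-KD reads and HNRNPCP3 had 57 and 0. With these added the log2 ratio of HNRNPC was 2.85. Of 145 copies of members, 20 had at least 10 reads, and those of HNRNPA3, HNRNPK, HNRNPR and SRSF6 were read in METTL3-KD cells alone, as HNRNPA3P6, HNRNPA3P3, HNRNPKP2, HNRNPRP1 and SRSF6P2, with 18 to 44 reads each.

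The other hnRNP genes without control reads were of low to middle METTL3-KD level. HNRNPM had 142 and 135 METTL3-KD reads. HNRNPH3 had 47 and 49, and HNRNPH2, an X-linked relative of HNRNPH1, had 20 and 12. In scaled reads HNRNPM was at least 422-fold, HNRNPH3 at least 146-fold and HNRNPH2 at least 48.8-fold higher than the control floor. HNRNPA3, of the A/B family, had 0 and 1 control reads and 87 and 82 METTL3-KD reads. Its ratio of scaled reads was 773, with an exact interval of 137 to 30706, from a control count far under a mode unit.

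**Figure D2:**
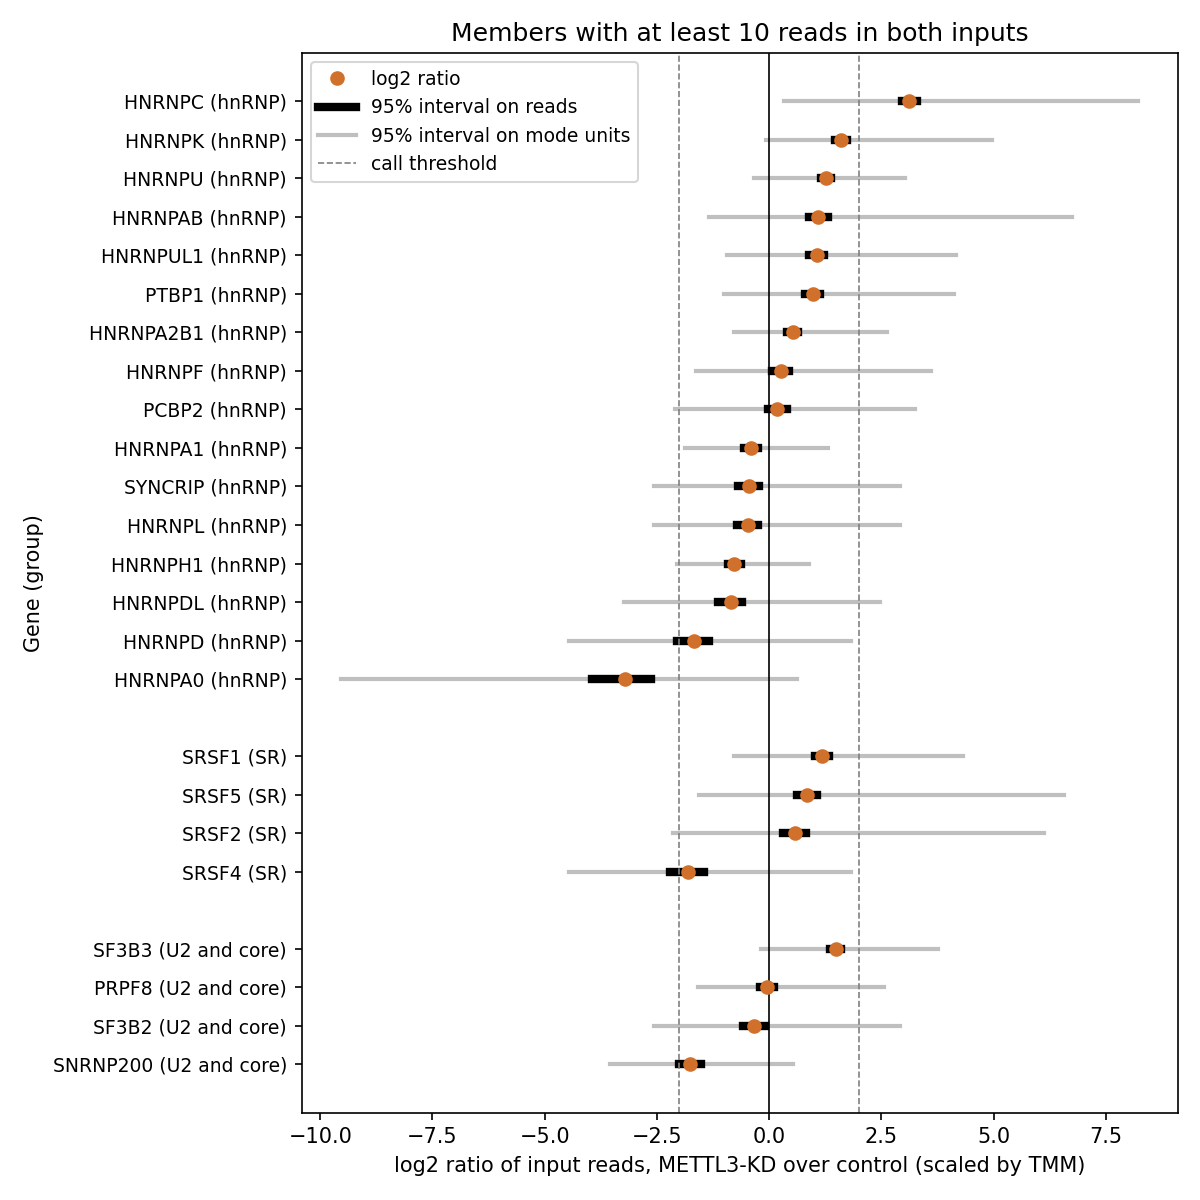
The log2 ratio of input reads, METTL3-KD over control under TMM scaling, for the 24 members with at least 10 reads in both inputs, with 95% exact intervals computed on reads (black) and on mode units (grey) and the call thresholds dashed. HNRNPC at 3.12 and HNRNPA0 at -3.21 lie beyond the thresholds. Under TMM scaling the grey interval of HNRNPC, which rests on 0.85 control mode units, alone lies on one side of 0. Under total count scaling the grey interval of HNRNPC would include 0, and 10 of the 24 ratios change sign.

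In the SR group the median log2 ratio was 6.64, against 5.60 for all genes tested. Of its 12 members 7 (58.3%) had 0 control reads, against 74.3% of all genes tested. Over the 4 members with at least 10 reads in both inputs the median was 0.71. SRSF1, the founding member of the family and a regulator of many alternative exons, had the most METTL3-KD reads, 248 and 257, with 466 and 547 in the control and a log2 ratio of 1.19 (1.03 to 1.34). SRSF2, a component of nuclear speckles, had 277 and 255 control reads and 91 and 82 METTL3-KD reads, a log2 ratio of 0.57 (0.32 to 0.82). SRSF5 had 321 and 295 reads against 116 and 127, a log2 ratio of 0.85 (0.63 to 1.07). SRSF4, which has a long RS domain, went the other way, with 506 and 512 reads in the control, 31 and 32 after knockdown and a log2 ratio of -1.81 (-2.21 to -1.45). SRSF1, SRSF2, SRSF4 and SRSF5 were read between 1.06 and 2.03 mode units in the control, so their ratios rest on very few control fragments. In mode units the interval of SRSF1 was -0.77 to 4.32.

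SRSF6, close in sequence to SRSF4, had 1 read in each control lane and 116 and 125 METTL3-KD reads. Its ratio of scaled reads was 551, with an exact interval of 151 to 4577, from a control count far under a mode unit. The SR and TRA2 genes with 0 control reads were led by SRSF3, the smallest SR protein and an adaptor for mRNA export, with 208 and 167 METTL3-KD reads. TRA2B, which binds GA-rich exonic enhancers, had 158 and 169, and its paralog TRA2A had 25 and 18. Within the TRA2 pair, TRA2B had far more METTL3-KD reads and neither gene was read in the control. SRSF9 had 77 and 98 METTL3-KD reads, SRSF11 had 68 and 69, and SRSF10, which represses splicing when dephosphorylated, had 58 and 56. SRSF7, another export adaptor, had 18 and 26. The folds over the control floor ranged from at least 65.6 (TRA2A) to at least 572 (SRSF3).

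In the U2 and core group the median log2 ratio was 6.98, against 5.60 for all genes tested. Over the 4 members with at least 10 reads in both inputs the median was -0.19. Of the 10 members 6 (60%) had 0 control reads, against 74.3% of all genes tested. All 3 SF3A genes and both U2AF genes were among these 6, together with SF3B1. SF3B1, the branch point protein that is often mutated in blood cancers, had 292 and 266 METTL3-KD reads, the most of any member without control reads. In scaled reads it was at least 851-fold higher than the control floor of 3 reads. This bounds reads and not the RNA level, because the floor is far under a control mode unit. SF3A1 had 64 and 90 METTL3-KD reads, SF3A2 had 47 and 54, and SF3A3 had 67 and 53. The METTL3-KD reads of the SF3A subunits thus lay between 101 and 154. U2AF1, which reads the AG at the 3′ splice site, had 47 and 51, and U2AF2, which binds the polypyrimidine tract, had 38 and 44. The same bounds on scaled reads lay between at least 125-fold and at least 235-fold for these SF3A and U2AF genes.

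SF3B2 and SF3B3, partners of SF3B1 in the same complex, were read in both inputs. SF3B3 had the most METTL3-KD reads of the group, 417 and 482, with 712 and 753 control reads and a log2 ratio of 1.49 (1.37 to 1.61). SF3B2 had 488 in each control lane and 77 and 93 METTL3-KD reads, a log2 ratio of -0.33 (-0.57 to -0.09). The SF3B subunits therefore gave 3 different readings, from 0 control reads for SF3B1 to 1465 for SF3B3. PRPF8, which holds the catalytic centre of the spliceosome, had 869 and 861 control reads and 175 and 192 METTL3-KD reads, a log2 ratio of -0.04 (-0.21 to 0.12). SNRNP200, the helicase that unwinds the paired U4 and U6 RNAs, had the most control reads of the group, 1076 and 1107, with 74 and 67 METTL3-KD reads and a log2 ratio of -1.75 (-2.02 to -1.51). The interval of PRPF8 included 0, and that of SNRNP200 in mode units was -3.55 to 0.54.

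Levels between genes were compared per kb of annotated exon in the METTL3-KD input, the library with more distinct fragments. The length joined the exons of all annotated transcripts of a gene, from 2118 nt for HNRNPAB to 22512 nt for HNRNPU among the genes named here. The order therefore depends on the annotation as well as on the reads, and the annotation used for the counts is not known. HNRNPK was highest at 124 CPM per kb (95% exact interval 116 to 133), followed by HNRNPAB at 114 (101 to 129), HNRNPC at 97.7 (91.1 to 105), HNRNPF at 77.8 (69.1 to 87.3) and SRSF1 at 76.7 (70.1 to 83.7). SF3B3 was the highest of the U2 and core genes at 63.6 (59.5 to 67.9). HNRNPA0 was lowest at 2.12 (1.31 to 3.23), and SRSF4 was next at 6.28 (4.83 to 8.03). Of 43 neighbouring pairs in this order 40 had overlapping intervals on reads. The exceptions were HNRNPC with HNRNPF, SRSF1 with SF3B3, and SRSF4 with HNRNPA0. These intervals count each read as separate, although a distinct position was read 25.7 times on average, so they are too narrow. Intervals per kb in mode units were not computed, so the 3 exceptions do not establish an order of RNA levels. The 11 highest members all had at least 10 control reads, as did 13 of the other 33. The METTL3-KD reads of members measured and at 0 in the control overlapped, with 21 to 940 reads and a median of 283 in the 24 members and 32 to 558 reads and a median of 117 in the 18 members at 0. The members together took 0.946% of the control reads and 0.679% of the METTL3-KD reads.

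**Figure D3:**
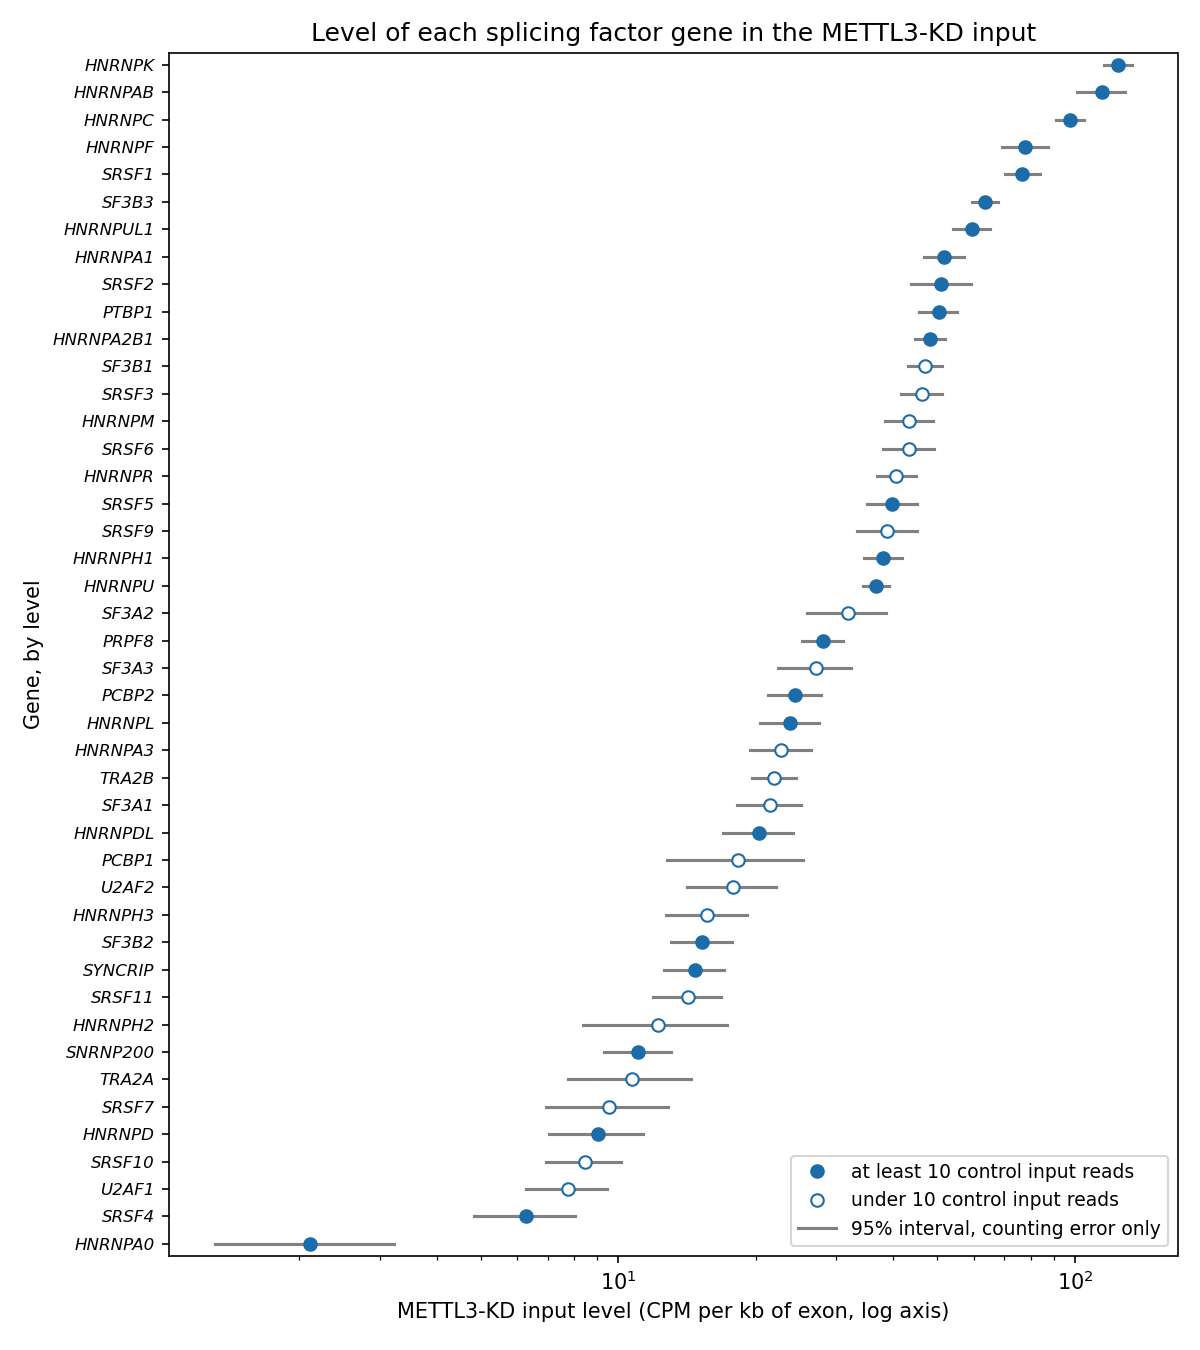
Level of each member in the METTL3-KD input, in CPM per kb of exon on a log axis, ordered from high to low, with 95% exact intervals of counting error on reads. Filled points had at least 10 control reads, and the 11 highest members from HNRNPK to HNRNPA2B1 are all filled, whereas filled and open points mix from SF3B1 downwards.

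Other genes of the splicing pathway gave the context, from lists of U1, U2 and Sm proteins, U6 and tri-snRNP proteins, the PRP19 complex with helicases, and the exon junction complex with regulators. Of 107 such genes 93 were tested, with a median log2 ratio of 5.72, against 5.60 for all genes tested. Of the 93 genes 10 were lower and 59 were higher, against 7.37% and 79.1% of all genes tested. Control reads were at 0 for 63 of the 107 (58.9%), a base that includes the genes not tested, whereas the 74.3% of all genes is over tested genes only. Among those with 10 reads in both inputs the lowest ratios were those of SF3B5, the smallest SF3B subunit (1725 control and 32 METTL3-KD reads, log2 ratio -3.53), the helicase AQR (1052 and 27, -3.06) and the splicing regulator QKI (1155 and 32, -2.95). The highest were those of SRRM1, a speckle protein (20 and 55, 3.45), SNRNP27 (15 and 23, 2.57) and NONO, a paraspeckle protein (1196 and 840, 1.68). The control counts of SRRM1 and SNRNP27 were far under a mode unit, at 0.04 and 0.03 units. The median of the 36 with 10 reads in both was -0.62, against 0.22 for the 24 members.

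To find methylated sites in these genes, the m6A peaks of each condition were placed on the gene models of hg19, exons and introns included. At a q value under 0.01 the control list held 25 peaks in 14 of the 44 members, and the METTL3-KD list held 3 peaks in 3 members. Of 8881 annotated genes tested 17.1% had a control peak and 5.7% had a METTL3-KD peak. The m6A library of METTL3-KD cells had 4508 distinct read positions, against 7920 in the control m6A library. The part of this difference in the peak counts was not tested. By group, 5 of 22 hnRNP genes, 3 of 12 SR genes and 6 of 10 U2 and core genes had a control peak. The 25 control peaks fell as 9 in hnRNP genes, 3 in SR genes and 13 in U2 and core genes. With a fold enrichment above 2 as well, 11 control peaks were left in 7 members. These were 2 hnRNP, 3 SR and 2 U2 and core genes, against 9.68% of the 8881 genes, so the lead of the U2 and core genes rests on peaks of 1 fragment. The member peaks of the lists shared 0 sites, and TRA2B alone had a peak in both lists. Of the 14 members with a control peak, 8 had 0 reads in the control input, so the input gave no level for their RNA in the cells where the peak was called.

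**Figure D4:**
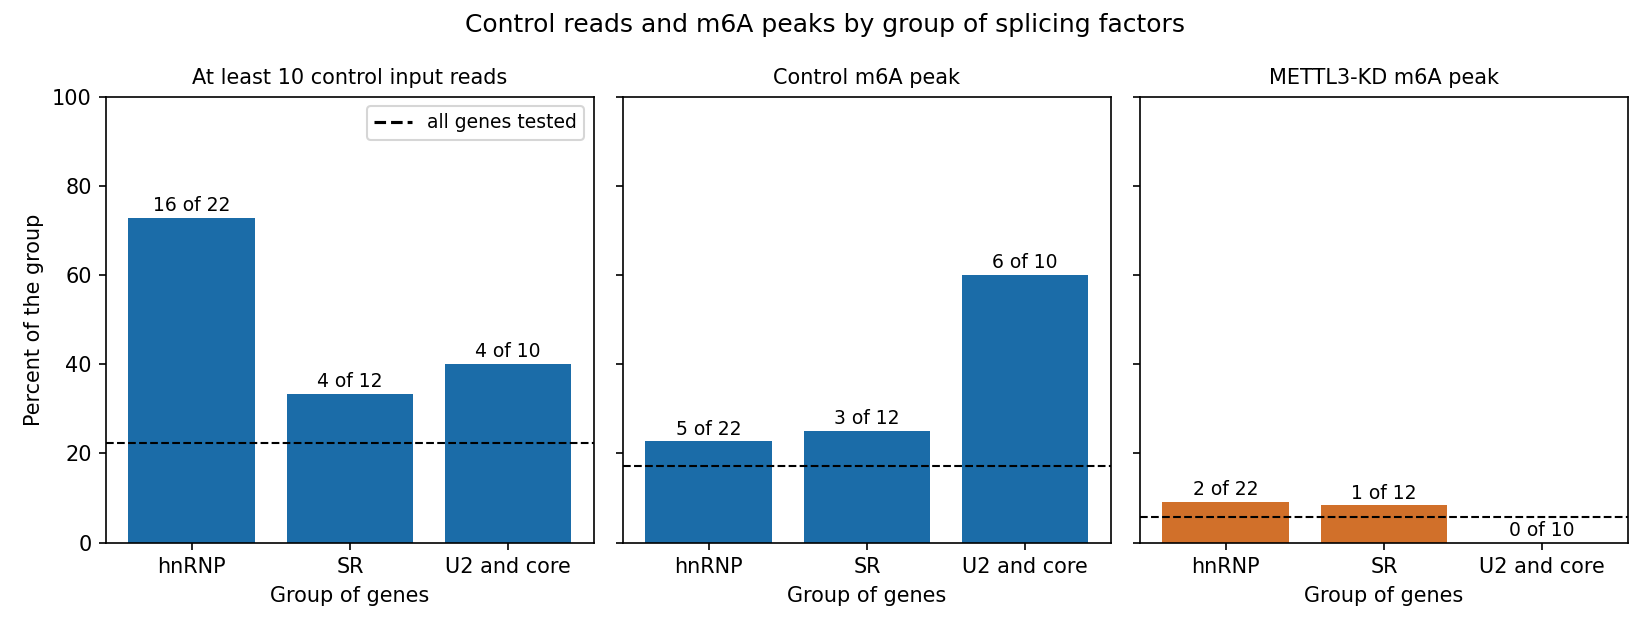
Percent of the genes of each group with at least 10 control input reads, with a control m6A peak and with a METTL3-KD m6A peak, with the number of genes above each bar and the share among all genes tested as a dashed line. hnRNP genes stand highest for control reads (16 of 22) and U2 and core genes for control peaks (6 of 10, but 2 of 10 with a fold above 2), while METTL3-KD peaks are few in every group.

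The support of the peaks was thin. The pileup, the number of distinct fragments at the summit, was 1 in 14 of the 25 control peaks (56%), as in 52% of all 2298 control peaks, 2 in 6 peaks, 3 in 3 peaks and 4 or more in 2. The METTL3-KD peaks of members had a pileup of 2 or 3. Of the control peaks 10 lay in coding sequence, 5 in 3′UTRs, 1 in a 5′UTR, 6 in introns and 3 in exons of transcripts other than the canonical transcript. Of the 6 intronic peaks 4 had their summit within 33 nt of an exon. The 75 nt at the summit, the length of a read, occurred once in the genome for 24 of the 25 control peaks and for all 3 METTL3-KD peaks.

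HNRNPC had 5 control peaks, and 1 gene of the 8881 had more. No METTL3-KD peak lay in the gene, and the METTL3-KD m6A library had fewer distinct read positions than the control m6A library (4508 and 7920). The 5 control peaks held 14 of the 44 fragments that the pileups of control peaks in members add up to. The strongest, at chr14:21679060-21679468 with a pileup of 5, ran from the end of the coding sequence into the 3′UTR of exon 9, and a peak further downstream in the same 3′UTR at chr14:21678725-21678824 had a pileup of 3. A peak at chr14:21698493-21698595 with a pileup of 3 had its summit in an exon of a retained-intron transcript. Another, at chr14:21702163-21702402 with a pileup of 1, lay in the coding part of exon 3, and an intronic peak at chr14:21705636-21705736 had a pileup of 2. The 75 nt at the summit of the downstream 3′UTR peak occurred 3 times in the genome, so its reads could come from a gene copy. The letters nearest each summit that match DRACH, the consensus of m6A sites (D is A, G or T, R is A or G, H is A, C or T), are shown in capitals on the minus strand of hg19 because HNRNPC carried the most peaks of the set. They lay 5 to 9 nt from the summit, except the match in exon 3, which lay 96 nt away. In the order shown the runs of 30 nt occurred 3, 2, 1, 1 and 1 times in the genome.
HNRNPC 3′UTR, chr14:21678766-21678795: ggttatttttgtGAACAgcctgatgtttgg
HNRNPC 3′UTR, chr14:21679106-21679135: ctctttatgactTAACAataaaaaggatgt
HNRNPC retained intron, chr14:21698535-21698564: acatttccaaatTAACCcttttcggtattt
HNRNPC coding exon 3, chr14:21702294-21702323: tcctcgctccatGAACTcccgtgtattcat
HNRNPC intron 2, chr14:21705677-21705706: acgaggtagtctTGACAaaatattgcagat

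**Figure D5:**
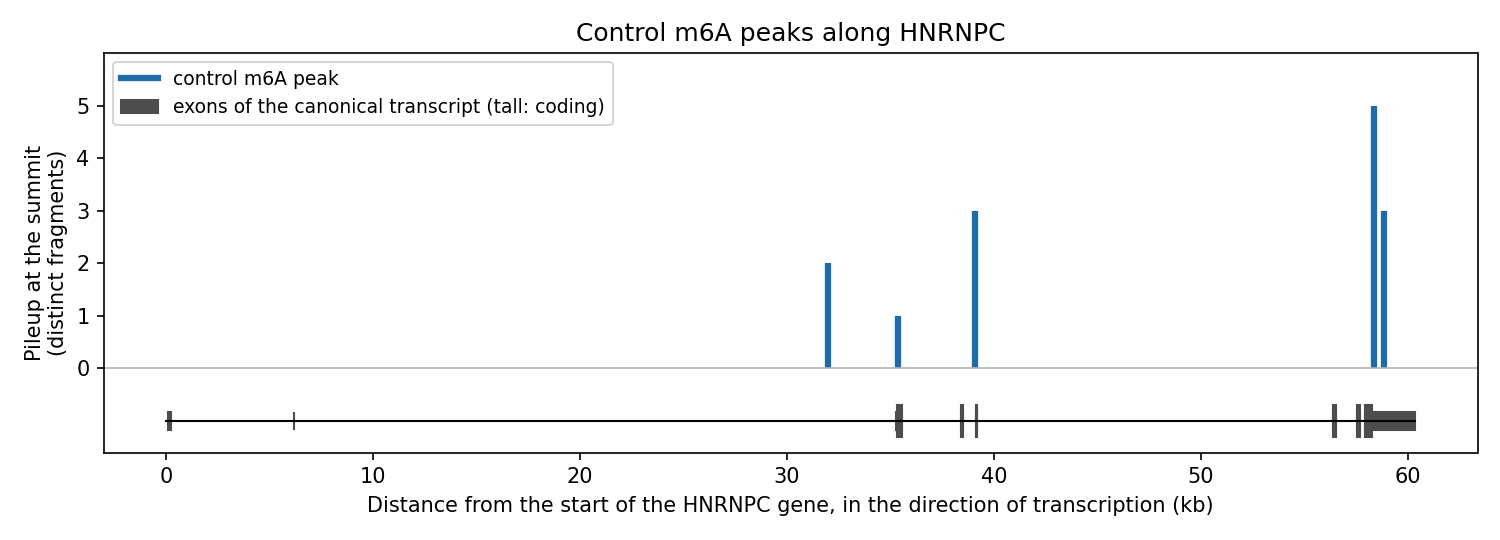
Control m6A peaks along HNRNPC, as pileup at the summit in distinct fragments against the distance from the start of the gene in kb, with the exons of the canonical transcript below (coding parts tall). The peaks with pileups of 5 and 3 at the right lie in the last exon, and the other 3 peaks lie in the middle of the gene.

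Of the other hnRNP genes 4 had 1 control peak each. PTBP1 had a peak in its 3′UTR at chr19:811983-812083 with a pileup of 2. HNRNPM (3′UTR, chr19:8553700-8553799), HNRNPL (coding exon 3, chr19:39336591-39336690) and PCBP1 (5′UTR, chr2:70314691-70314790) had peaks with a pileup of 1. The PCBP1 summit also lay in the gene PCBP1-AS1, and the peak lists give no strand, so the source of the fragment cannot be told apart. In METTL3-KD cells PCBP2 had a peak in coding exon 14 at chr12:53865431-53865531 with a pileup of 2, and SYNCRIP had one in intron 1 at chr6:86351155-86351258 with a pileup of 3, where the gene ENSG00000271793 also lies. Neither gene had a control peak, and both had control input reads.

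Among the SR genes SRSF9, SRSF10 and TRA2B had a control peak, each with a pileup of 2, and all had 0 control input reads. The SRSF10 peak lay in coding exon 3 at chr1:24301472-24301572, which is also part of transcripts annotated as subject to nonsense-mediated decay. The SRSF9 peak, at chr12:120900494-120900595, lay in a retained-intron exon where the gene GATC overlaps. TRA2B had its control peak in coding exon 3 at chr3:185643299-185643402 and its METTL3-KD peak in intron 1 at chr3:185651717-185651816 with a pileup of 3. The TRA2B summits were 8417 nt apart, so the gene had a peak in each list but at different places. The window of the control summit held no DRACH match. The sequences of SRSF10, whose DRACH adenosine lay 1 nt from the summit, and of the 3 METTL3-KD peaks, which show what was called after knockdown, are given in the direction of transcription (SRSF10, TRA2B and SYNCRIP on the minus strand, PCBP2 on the plus strand of hg19), with DRACH letters in capitals. The SRSF10 run occurred 3 times in the genome, the PCBP2 run 2 times, and the other runs once, and the METTL3-KD matches lay 23 to 37 nt from the summit.
SRSF10 control peak, chr1:24301508-24301537: tttacataatttGGACAgaaagtggatttg
TRA2B METTL3-KD peak, chr3:185651716-185651745: tagattgttaccTGACAgtttggataaggg
PCBP2 METTL3-KD peak, chr12:53865490-53865519: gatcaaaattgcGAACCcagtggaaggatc
SYNCRIP METTL3-KD peak, chr6:86351158-86351187: cttattgcgtttGAACAgatctctggaaac

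The U2 and core genes held 13 control peaks and 0 METTL3-KD peaks. SNRNP200 had 4 of them: in intron 10 at chr2:96963243-96963345 with a pileup of 3, in intron 33 at chr2:96949072-96949173 with a pileup of 2, and in coding exon 7 at chr2:96964650-96964749 and intron 5 at chr2:96965132-96965231 with a pileup of 1 each. The intronic summits of SNRNP200 lay 20, 33 and 17 nt from the nearest exon. U2AF2 had a peak with a pileup of 4, the highest outside HNRNPC, at chr19:56166333-56166453, in an exon of other transcripts upstream of the canonical start, and a peak with a pileup of 1 in coding exon 2 at chr19:56170565-56170664. The remaining 7 peaks had a pileup of 1 each. SF3B1 had peaks in coding exons 4 (chr2:198285193-198285292) and 24 (chr2:198257757-198257856). SF3B2 had peaks in coding exon 20 (chr11:65835389-65835488), where the gene ENSG00000255038 also lies, and 14 nt from an exon in intron 14 (chr11:65829093-65829192). SF3B3 had peaks in coding exon 16 (chr16:70594376-70594475) and deep in intron 9, and SF3A3 had a peak in its 3′UTR (chr1:38423062-38423161). The DRACH match nearest to the summit of the strongest SNRNP200 peak, the best supported peak of the core proteins, is shown in the direction of transcription (minus strand of hg19) with DRACH letters in capitals, 35 nt from the summit, and this run of 30 nt occurred once in the genome.
SNRNP200 intron 10, chr2:96963314-96963343: ttgatggatggaAAACTcacttgctcggct

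The DRACH motif was searched on the sense strand in windows of 101 nt around the summit of peaks in genes. Peaks whose summit lay in genes on both strands were left out. DRACH was found in 18 of 22 windows of control peaks in members (81.8%), against 84.6% of the 1901 windows of all control peaks. GGACT, the DRACH form most often found at m6A sites, was in 3 of 22 (13.6%), in HNRNPC, SF3B3 and SNRNP200, against 8%, and a run of at least 5 T in 7 of 22 (31.8%), against 18.9%. Of the 7 windows with a T run 3 belonged to HNRNPC. In METTL3-KD cells all 3 member windows held DRACH, against 85.1% of 684 windows. Most windows of this length hold DRACH, so a match describes letters near the summit and is not a methylated site.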

How the data were processed

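Ribosomal reads were discarded by the authors with Bowtie2. The rest were aligned to hg19 by HISAT2, and featureCounts gave the reads of each gene. The deposited table holds raw whole-number counts for each lane of the input libraries. The annotation, the use of strand and the treatment of multiply aligned reads are not given in the sources used here. The authors called peaks with MACS2 2.1.1 on pooled lanes, m6A against input, with fragments extended to 100 bp and 1 tag kept per position. The deposited pileup is a signal of fragments at the summit, the fold column is the authors' ratio to the local background, and the −log10 column gives q values. The file headers name a q value of 0.05 and the methods 0.01, which was used here. The study also set a fold above 2 for significant peaks, which was an alternative here.

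The 44 members and the lists of other splicing genes were chosen with earlier results of these data known. Lanes were summed, because L001 and L002 were read as lanes of 1 library, and no test between conditions was made. Log2 ratios were computed with edgeR 4.0.16 (prior count of 2) for genes with at least 10 reads over both inputs. They were called beyond 2, the size threshold of the study. TMM factors were taken before this filter, and they rest on genes with reads in both inputs. Intervals are exact Clopper-Pearson intervals (95%) and, like floors of 3 reads, cover counting error only, since reads carry no molecular identifiers and are not separate molecules. Mode units are reads divided by the lower mode of reads per gene (kernel density, bandwidth 0.12 on the log2 scale), rounded for intervals. Genes were named and peaks placed with GENCODE release 44 on GRCh37, with at least 1 bp of overlap, canonical transcript first. Sequences were read from GRCh37, and exact copies were counted on its primary chromosomes on both strands. Gene copies were found by symbol. The sequence of 1 intronic peak is not reported here.

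Named were all members with their reads, each member peak, log2 ratios of members with at least 10 reads in both inputs, the 3 lowest and 3 highest other splicing genes, METTL3, and copies with at least 10 reads. The marker PECAM1 was not matched by symbol and was not used. The ratio script was tested on simulated independent counts for genes with at least 10 reads in both inputs. Repeated reads of a fragment and genes at 0 in the control were not simulated, so the simulation does not cover them. Alternatives covered scaling (DESeq2 1.42.0 size factors, total counts), prior counts, filters, each lane left out, lanes as replicates in edgeR and DESeq2, mode units, the call threshold and the peak filters. The lane numbers come from the titles, and lane deviations of the inputs correlated at -0.01 over 1871 genes.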

Additional observations from a re-analysis of the deposited data

How the results depend on the processing

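Of 105 recomputed counts and medians 74 stayed within 1.5 times of the value given, 30 moved and 1 that had been beyond 2 changed sign. The cause was not tested, except where stated. Total count scaling shifts the median of the genes with 10 reads in both inputs by -1.36, and DESeq2 size factors shift it by 0.26. The 1 lower member became 6 under total count scaling and 4 with calls beyond a log2 ratio of 1. The 10 lower other splicing genes became 18 and 16 under these settings, 4 with lanes as replicates in DESeq2, and 5 to 9 with a lane left out. When at least 10 reads were required in each input, which leaves out the genes at 0 in the control, 1 member and 2 other splicing genes were higher. These 2 genes, SRRM1 and SNRNP27, had control counts far under a mode unit. The group medians were then 0.22 (hnRNP), 0.71 (SR) and -0.19 (U2 and core, reversed). Total count scaling gave medians of -0.36, where the hnRNP median of 1.01 also changed sign, 5.65 and 5.98. Because the prior count sets the ratio of genes at 0, the SR and U2 and core medians were 8.28 and 8.97 with a prior count of 0.5 and 4.38 and 4.70 with 10. They were 9.66 and 10.7 with lanes as replicates in DESeq2. The SR median was 7.45 among genes with at least 50 reads. With a lane left out the medians were 5.90 to 5.92 and 6.05 to 6.22. With lanes as replicates in edgeR they were 5.81 and 6.15, both without and with the replicate block. The lane number pairs lanes of different libraries, which share only a number, and the block left 1 lower and 21 higher members. At a q value under 0.001, or a fold above 2, 7 members had a control peak (2 hnRNP, 3 SR, 2 U2 and core), since peaks with a pileup of 1 fall out. For single members 273 of 548 recomputed ratios stayed within their interval on reads or, with few control reads, within 1.5 times. HNRNPA0 and HNRNPC kept their sign in all 13 settings, several of which share the TMM scaling of the values given. Under total count scaling HNRNPC, at 1.75, was not called.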
